A study of Mus musculus with 4 samples.

Results

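RNA polymerase II and the factors that carry it through a gene were described here as 40 genes, listed by name, with no value of theirs in the rule, though earlier results of these data were known when the list was made. They were the 12 subunit genes of the polymerase and 28 genes of elongation factors, and all 40 were found among the 18560 genes of the table and passed the filter on low counts, which left 12816 genes in all. The libraries came from naive CD4+ T cells of C57BL/6 mouse spleen activated through CD3 and CD28 without further steering (Th0 cells), with 2 libraries of Setd2 knockout cells (KO, genotype Setd2-CD4 cre, numbered 9 and 12) and 2 of wild type cells (WT, numbered 1 and 6). All 4 carry the same activation, which the labels put at 3 days, the design text at 2 days and the sample titles mark as 48. The Cre of the knockout is driven by Cd4 sequences, which act in all T cells that have passed through the stage expressing CD4, CD8 T cells included. The labels give neither age nor sex, and do not say whether the libraries came from separate animals, so the spread behind each p-value is that between libraries, part or all of which may be technical.

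RNA polymerase II makes all messenger RNA. After initiation it is held near the start of many genes by DSIF and NELF, and it is released when the kinase P-TEFb phosphorylates these factors and the polymerase's carboxy-terminal repeat domain. Further factors (SPT6, FACT, the PAF1 complex, TFIIS) then help it through nucleosomes and pause sites. SETD2 binds the phosphorylated repeat domain of the moving polymerase and trimethylates lysine 36 of histone H3 behind it. The genes described here encode that polymerase and factors that act with it. T cell activation is known to release paused polymerase at many genes.

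Each library held between 17284600 and 20418800 expected counts. The chi-square per degree of freedom between any pair was at least 30.5, so none was a repeat of another. That smallest value was between KO 9 and WT 1, a pair across genotypes. It was 52.9 between the KO libraries and 46 between the WT libraries. By this measure KO 9 lay nearer to WT 1 than to KO 12. Setd2 itself (chr9:110532500-110618633, GRCm38.p6 as for all positions here) stood at 127 and 113 CPM (counts scaled to a common library size, here with TMM) in KO libraries, against 157 and 174 CPM in WT libraries, a log2 fold change of -0.47 (SE 0.21, edgeR adjusted p 0.421). A gene count adds all exons, so it does not test the deleted part, and genes of the same length had a median of -0.42. The T cell genes Cd3d, Cd3e, Cd3g and Cd4 summed to 1070 and 1135 CPM in KO libraries, against 1327 and 1566 CPM in WT libraries. All 4 B cell markers were found, with sums of 159 and 303 CPM in KO libraries and 210 and 139 CPM in WT libraries. Both CD8 genes summed to 432 and 323 CPM against 260 and 330 CPM, and the 3 NK cell markers to 62.9 and 24.6 CPM against 11.7 and 25.8 CPM, most of it from Klrk1 (59.2 CPM in KO 9). The 5 myeloid markers summed to between 12.6 and 23.8 CPM and the 5 erythroid markers to between 2.15 and 19.8 CPM. The part these other cells have in the values below was not tested, and in such bulk samples fewer cells of a type cannot be told apart from less RNA per cell.

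None of the 40 genes passed the test. edgeR's quasi-likelihood test, adjusted over all 12816 genes, called 0 members higher in KO cells (0.00780% of all genes) and 0 lower (0.00% of all genes). At an unadjusted edgeR p under 0.05, 6 members were higher (6.23% of all genes), namely Polr2e, Polr2f, Polr2g, Polr2h, Supt4a and Ell2, and 2 were lower (5.73% of all genes), Aff1 and Aff4. Single libraries moved these genes. With each library left out in turn, log2 fold changes ran from 0.66 to 1.01 for Polr2e and 0.70 to 1.43 for Polr2f. They ran from 0.29 to 0.75 for Polr2g and from 0.50 to 1.07 for Polr2h. Supt4a ran from 0.65 to 0.98 and Ell2 from 0.34 to 0.76. Aff1 ran from -1.22 to -0.56 and Aff4 from -1.16 to -0.40. DESeq2 called 0 members in either direction (0.694% of all genes higher, 0.757% lower), with 6 higher and 4 lower at its unadjusted p (6.59% and 6.48% of all genes). The smallest DESeq2 adjusted p of a member was 0.0682, for Supt4a. Over the alternative fits a member passed in 1 only. Without WT replicate 1, Polr2k stood at a log2 fold change of 2.09 (edgeR adjusted p 0.0443), with WT 6, where it was lowest, as the lone WT library.

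Both KO libraries lay above both WT libraries for 17 members (42.5%, against 25.4% of all genes) and below them for 7 members (17.5%, against 24.3% of all genes). In all, 24 members had a positive log2 fold change (60.0%, against 49.8% of all genes), and the median was 0.23, beside -0.002 over all genes. That median was 0.41 without WT replicate 1, 0.29 without KO replicate 9, and 0.08 without WT replicate 6 or without KO replicate 12. The libraries KO 12 and WT 6 held the extremes. KO 12 was the highest of the 4 libraries for 23 members and the lowest for 12, and WT 6 was the lowest for 24.

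**Figure D1:**
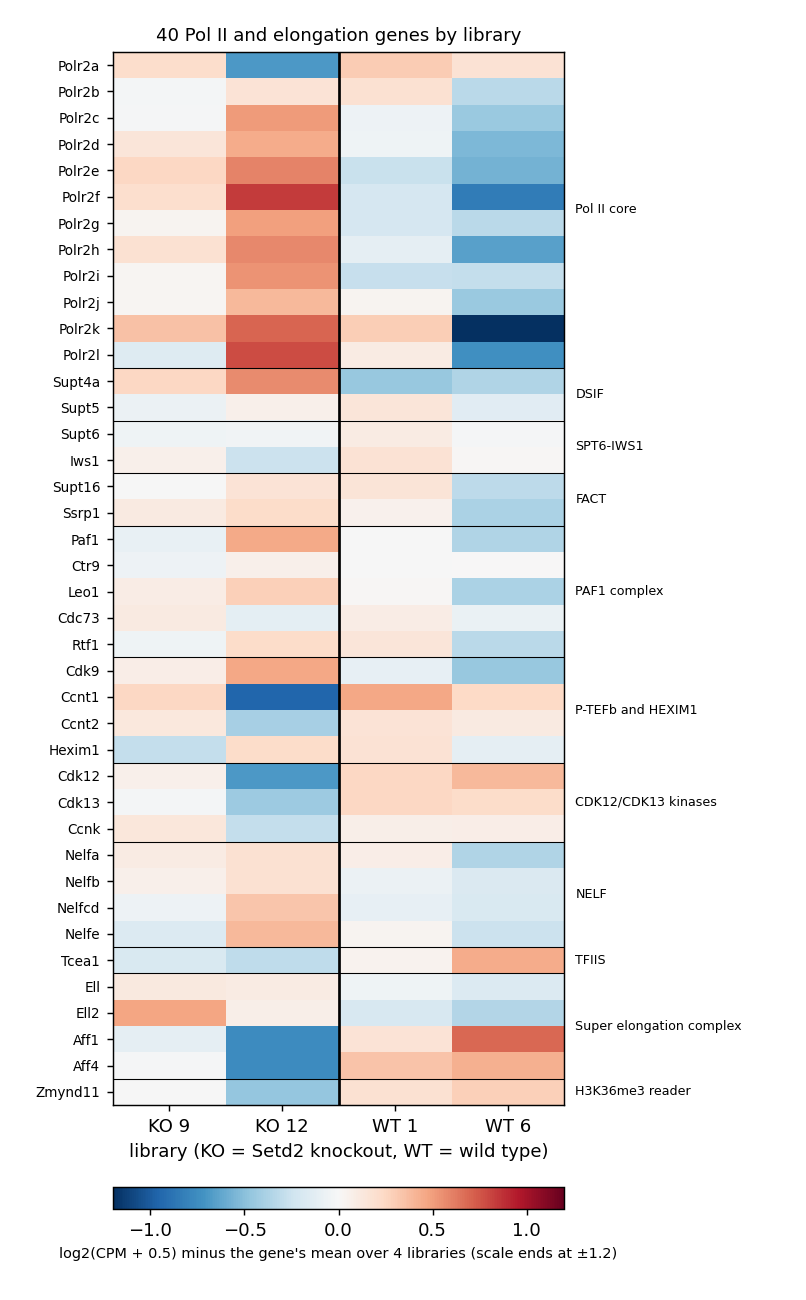
Each row is one of the 40 genes, grouped by complex, and each column a library, with the Setd2 knockout (KO) left of wild type (WT). Colour gives log2(CPM + 0.5) minus the gene's own mean over the 4 libraries, and the scale is clipped at its ends, which the WT 6 value of Polr2k passes. KO 12 is highest for 23 genes and WT 6 lowest for 24, and for Polr2a, Ccnt1, Cdk12, Aff1 and Aff4 KO 12 is the lowest.

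The log2 fold changes of the members tended to fall with length. Members under 1 kb were polymerase genes apart from Supt4a, so length and complex cannot be told apart there. Effective length is the transcript length open to reads, read here from the deposited counts and FPKM values (fragments scaled by transcript length and by library size). All 9 members under 1 kb had a positive log2 fold change (0.41 to 1.06, median 0.76), as had all 4 members between 1 and 2 kb (median 0.45). Of 16 members between 2 and 4 kb, 9 were positive (median 0.17). Of 9 members between 4 and 8 kb, 2 were positive (median -0.09), and both members over 8 kb, Aff1 and Aff4, were negative. All tested genes had the same order, with medians of 0.38, 0.22, 0.003, -0.24 and -0.47 over the same 5 classes of length. Spearman's rank correlation between log2 fold change and effective length was -0.824 over the 40 members and -0.402 over 12622 genes, as descriptions, since genes share the same 4 libraries. With the length of the gene on the chromosome in place of effective length the rank correlation was -0.725 and -0.258.

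The trend differed between libraries of the same genotype. Over all genes, KO 12 deviated from the gene mean by a median of 0.36 on the log2 scale below 1 kb and by -0.53 above 8 kb, whereas KO 9 deviated by 0.003 and 0.08. Of the WT libraries, WT 1 deviated by -0.08 and 0.15 and WT 6 by -0.25 and 0.34 in these classes. Among the members the medians below 1 kb were 0.18 in KO 9 and 0.57 in KO 12, against -0.20 in WT 1 and -0.54 in WT 6. The rank correlation over the members was -0.722 without KO replicate 12, -0.844 without KO replicate 9, -0.804 without WT replicate 1 and -0.791 without WT replicate 6. With a smooth trend on effective length taken out of each library, the rank correlation over the members was -0.477. In that fit 29 members were positive, and their median was again 0.23, beside 0.02 over all genes. The share of all genes that were positive in it was not worked out. At an unadjusted edgeR p under 0.05 that fit had 4 members higher (5.98% of all genes), Polr2e, Polr2f, Supt4a and Ell2, and 1 lower (4.86% of all genes), Tcea1.

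**Figure D2:**
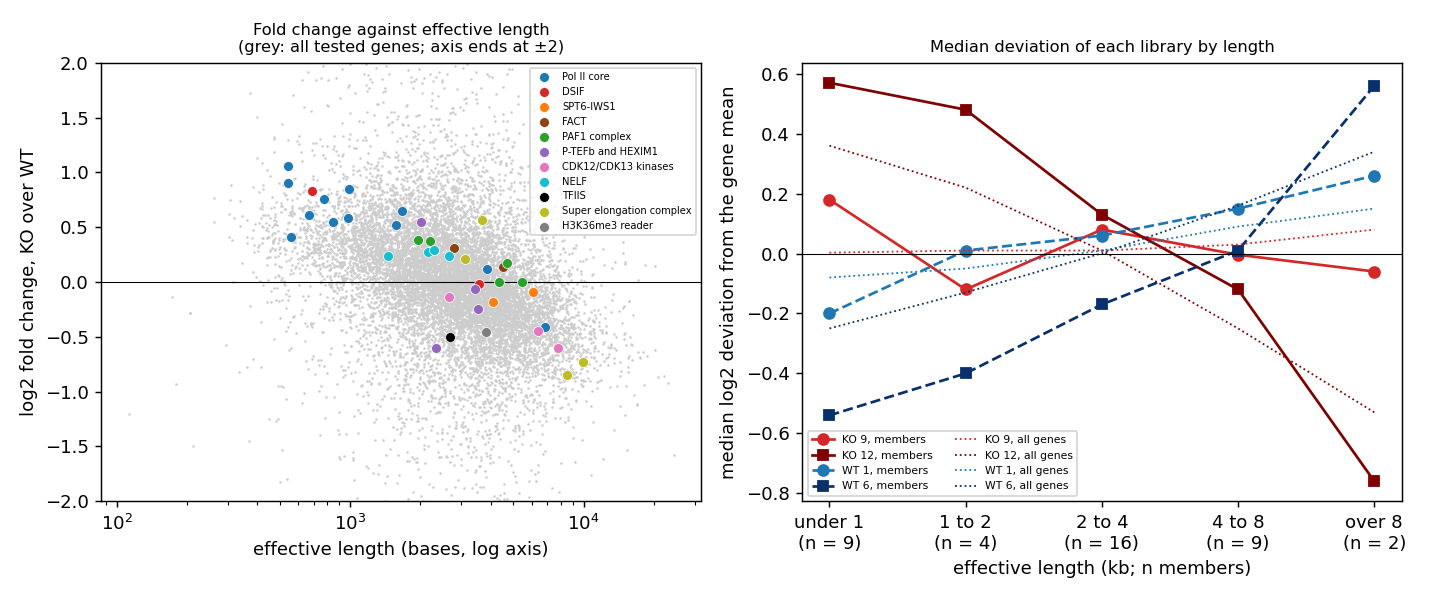
Left, log2 fold change (KO over WT) against effective length in bases on a log axis, with all tested genes in grey and the members coloured by complex. Right, the median log2 deviation of each library from the gene mean in 5 classes of effective length, for members (symbols, with their number under the axis) and for all genes (dotted). KO 12 is high for short genes and low for long ones and WT 6 the reverse, while KO 9 stays within 0.2 of 0.

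Each member was also set beside the 500 tested genes nearest to it in effective length. Of the 40, 29 lay above the median of those genes and 11 below it, with a median excess of 0.21 on the log2 scale. By definition as many of the 500 genes lie above such a median as below it. The share of all genes above their own such median was not worked out. Members share the same 4 libraries, so the counts here are descriptions. All 5 PAF1 complex genes, all 4 NELF genes, both DSIF genes, both FACT genes and 11 of 12 polymerase genes lay above it. All 3 CDK12/CDK13 genes lay below it, as did Tcea1, Zmynd11, Aff1 and Aff4. The excess ran from -0.69 for Ccnt1 to 0.67 for Polr2f.

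**Figure D3:**
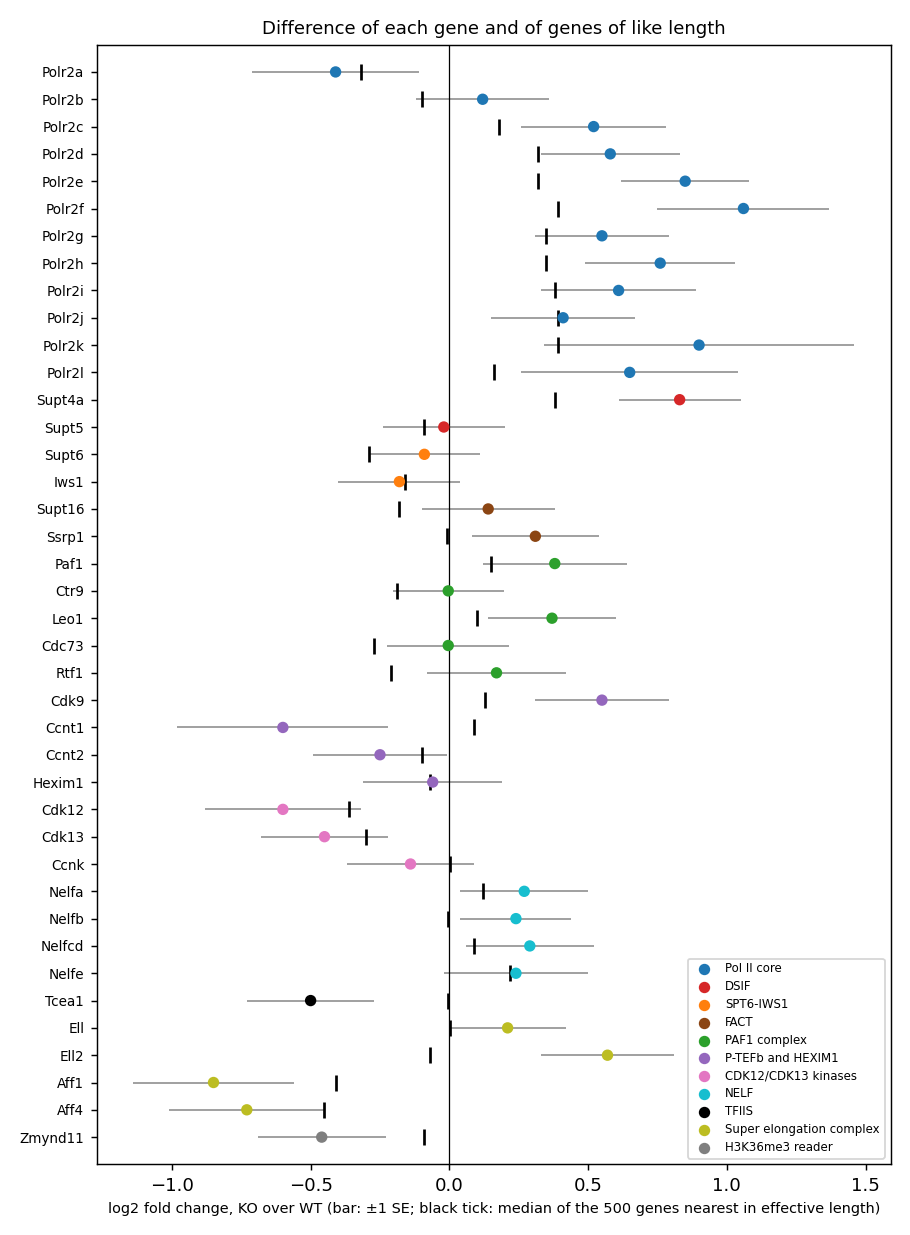
Points give the log2 fold change (KO over WT) of each gene, coloured by complex, with bars of 1 SE from the edgeR fit, and black ticks give the median of the 500 genes nearest in effective length. Of the 40 points, 29 lie right of their tick, and Ccnt1, Tcea1, Aff1 and Zmynd11 lie left of theirs by 0.37 to 0.69.

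Of the 12 polymerase subunit genes, 11 had a positive log2 fold change, against 49.8% of all genes. Both KO libraries lay above both WT libraries for 8 of them (25.4% of all genes), though none passed the test. Their median effective length was 912 bases, and all genes under 1 kb had a median log2 fold change of 0.38. The median over the 12 genes was 0.60, or 0.31 with the length trend removed. It was 0.30 without KO replicate 12, 0.34 without WT replicate 6, and 0.80 without KO replicate 9 or without WT replicate 1. Polr2a (chr11:69733997-69758633) encodes the largest subunit, which holds part of the active site and the repeat domain to which SETD2 binds. It stood at 520 and 279 CPM in KO libraries, against 555 and 506 CPM in WT libraries, a log2 fold change of -0.41 (SE 0.30, edgeR adjusted p 0.546). KO 12 alone was low, and without it the log2 fold change was -0.03. Polr2b, for the other large subunit of the active site, stood at 118 and 134 CPM in KO libraries, against 136 and 95.6 CPM in WT libraries (log2 0.12, SE 0.24), and the groups overlapped.

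The 5 subunits encoded by Polr2e, Polr2f, Polr2h, Polr2k and Polr2l are shared with RNA polymerases I and III, and their genes had a median log2 fold change of 0.85, or 0.54 with the length trend removed. Polr2e stood at 84.0 and 107 CPM in KO libraries, against 58.7 and 47.6 CPM in WT libraries, a 1.80-fold difference (log2 0.85, SE 0.23, edgeR p 0.00712, adjusted p 0.366). Polr2f stood at 45.7 and 71.5 CPM in KO libraries, against 34.4 and 22.0 CPM in WT libraries, a 2.08-fold difference (log2 1.06, SE 0.31, edgeR p 0.00994, adjusted p 0.385). For both genes each KO library was above each WT library, with KO 12 highest and WT 6 lowest. Polr2h stood at 27.8 and 36.6 CPM in KO libraries, against 22.7 and 15.4 CPM in WT libraries (log2 0.76, SE 0.27, edgeR adjusted p 0.413). Polr2k was the least abundant, with 47.6 counts in WT 6, and stood at 8.99 and 11.6 CPM in KO libraries, against 8.60 and 2.43 CPM in WT libraries (log2 0.90, SE 0.56), and its difference lay mostly in WT 6. Without WT replicate 6 its log2 fold change was 0.26. Polr2l stood at 30.5 and 59.1 CPM in KO libraries, against 36.6 and 20.3 CPM in WT libraries (log2 0.65, SE 0.39), with overlapping groups. Its log2 fold change was 0.10 without KO replicate 12, 0.29 without WT replicate 6, 1.04 without KO replicate 9 and 1.15 without WT replicate 1.

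The 5 genes of smaller subunits found in polymerase II alone had log2 fold changes between 0.41 and 0.61. Polr2d and Polr2g encode the stalk near the exit of the RNA. Polr2d stood at 34.2 and 42.2 CPM in KO libraries, against 29.9 and 21.1 CPM in WT libraries (log2 0.58, SE 0.25). Polr2g stood at 58.9 and 81.4 CPM in KO libraries, against 50.1 and 45.9 CPM in WT libraries (log2 0.55, SE 0.24). The groups did not overlap for either gene. Polr2c, for an assembly subunit, stood at 60.5 and 87.5 CPM in KO libraries, against 58.7 and 44.7 CPM in WT libraries (log2 0.52, SE 0.26). Polr2i, whose product acts in RNA cleavage and start site choice, stood at 15.3 and 22.1 CPM in KO libraries, against 12.3 and 12.2 CPM in WT libraries (log2 0.61, SE 0.28). Polr2j stood at 43.4 and 56.1 CPM in KO libraries, against 43.7 and 31.3 CPM in WT libraries (log2 0.41, SE 0.26), which was within 0.02 of the median of genes of its length.

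Set side by side per length, the subunit genes did not have equal RNA levels, although the enzyme holds one copy of each subunit. Mean FPKM over the 4 libraries ran from 78.7 for Polr2f, 77.3 for Polr2j and 74.2 for Polr2e down to 21.7 for Polr2l and 14.6 for Polr2k, with Polr2a at 68.5 and Polr2b at 31.3. The ratio of Polr2a to Polr2b in FPKM was 2.48 and 1.17 in KO libraries, against 2.30 and 2.98 in WT libraries. KO 12 alone was low in that ratio and the groups overlapped. With 2 libraries in each group no exact two-sided permutation test of such a ratio can go below p = 0.333, so the ratios here have no test.

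**Figure D4:**
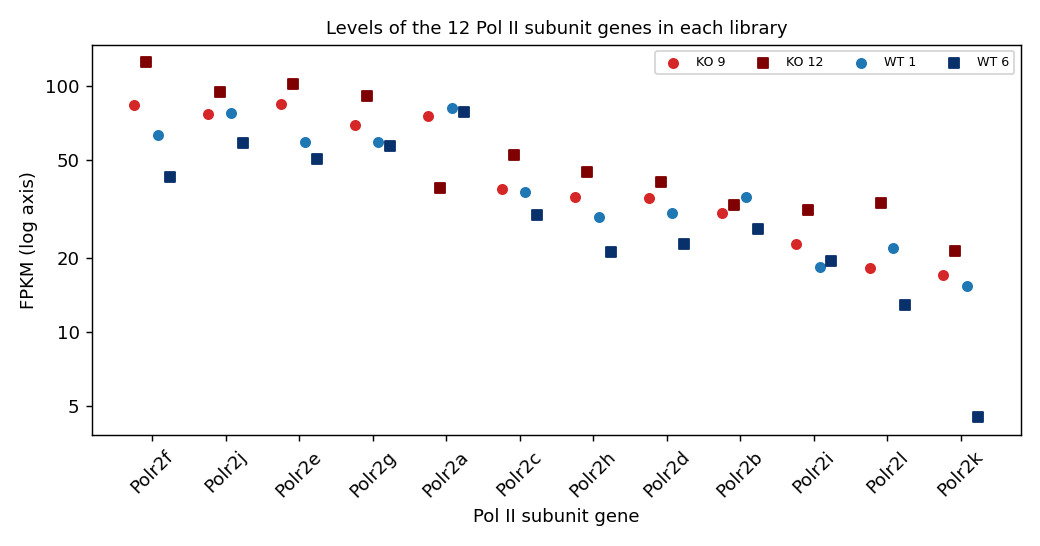
FPKM on a log axis of the 12 polymerase subunit genes in each library (KO red, WT blue), in order of mean level. Polr2a in KO 12 (38.6 FPKM) and Polr2k in WT 6 (4.50 FPKM) stand apart from the other libraries of their gene.

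The region before the start is printed for Polr2e, Polr2f, Supt4a and Ell2, the members that were higher at an unadjusted p and have 1 promoter window in the RefSeq table (GRCm38.p6) that ends at the annotated start. Each shows the 250 bases before the start on the gene's strand, 5′ to 3′, with motif matches on either strand in capitals. Polr2e lies on the minus strand at chr10:80039660-80039909, Polr2f on the plus strand at chr15:79141075-79141324, Supt4a on the plus strand at chr11:87737301-87737550 and Ell2 on the plus strand at chr13:75707234-75707483.
Polr2e: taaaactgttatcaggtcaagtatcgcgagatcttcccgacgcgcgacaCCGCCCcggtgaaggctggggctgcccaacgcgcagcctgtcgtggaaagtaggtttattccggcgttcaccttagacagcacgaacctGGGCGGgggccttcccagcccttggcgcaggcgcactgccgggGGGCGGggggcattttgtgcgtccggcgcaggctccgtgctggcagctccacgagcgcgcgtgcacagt
Polr2f: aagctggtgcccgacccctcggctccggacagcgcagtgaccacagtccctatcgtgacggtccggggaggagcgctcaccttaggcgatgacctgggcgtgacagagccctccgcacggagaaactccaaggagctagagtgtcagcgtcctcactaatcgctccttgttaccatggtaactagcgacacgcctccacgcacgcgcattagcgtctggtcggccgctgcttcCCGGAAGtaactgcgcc
Supt4a: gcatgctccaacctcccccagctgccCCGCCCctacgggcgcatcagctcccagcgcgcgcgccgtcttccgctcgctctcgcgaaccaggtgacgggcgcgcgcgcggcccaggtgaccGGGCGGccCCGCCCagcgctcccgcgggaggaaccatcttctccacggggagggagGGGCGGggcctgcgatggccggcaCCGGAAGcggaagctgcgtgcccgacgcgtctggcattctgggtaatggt
Ell2: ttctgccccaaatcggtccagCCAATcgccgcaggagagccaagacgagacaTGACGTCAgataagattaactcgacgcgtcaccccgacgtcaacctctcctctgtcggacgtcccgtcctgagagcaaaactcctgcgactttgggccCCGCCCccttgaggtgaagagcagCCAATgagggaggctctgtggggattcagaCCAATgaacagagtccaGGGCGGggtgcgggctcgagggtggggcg

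The capitals mark 3 GC boxes (GGGCGG) at Polr2e, 1 ETS core (CCGGAAG) at Polr2f, 4 GC boxes and 1 ETS core at Supt4a, and 2 GC boxes, 3 CCAAT boxes (CCAAT) and 1 CRE (TGACGTCA) at Ell2. Of the 40 members, 32 had a window in the table. Members are counted below by gene and the percentages are shares of single windows, which are unlike measures. A gene with several windows has more chances to match. A GC box was present before 27 of these 32 genes, against 32.7% of all 32851 windows, an ETS core before 8 (6.91% of windows), an NRF1 motif (GCGCATGCG) before 3 (1.45%) and a CCAAT box before 10 (33.8%). The TATA box (TATAAA) was present before 3 (12.4%), the E box (CACGTG) before 3 (6.02%), the CRE before 1 (1.55%) and the YY1 motif (AAGATGGCG) before 1 (0.606%). The E2F motif (TTTCGCGC, 0.256%) and the AP-1 site (TGACTCA, 4.46%) were before none. Matches were read on both strands and may overlap between motifs. A gene with several windows was counted once if any of them matched, and a match describes letters, not binding.

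DSIF, which binds the polymerase early and serves in pausing and in elongation, has 2 subunits, and their genes had unlike values. Supt4a, for the small subunit SPT4, stood at 90.0 and 113 CPM in KO libraries, against 55.3 and 59.0 CPM in WT libraries, a 1.78-fold difference (log2 0.83, SE 0.22, edgeR p 0.00572, adjusted p 0.354). The groups did not overlap, and the WT libraries were close to each other. With the length trend removed its log2 fold change was 0.46, and with any library left out it lay between 0.65 and 0.98. Supt5, for the large subunit SPT5, stood at 196 and 215 CPM in KO libraries, against 228 and 188 CPM in WT libraries (log2 -0.02, SE 0.22). The ratio of Supt4a to Supt5 in FPKM was 2.36 and 2.74 in KO libraries, against 1.27 and 1.62 in WT libraries, without overlap. The 2 genes differ in effective length (685 and 3549 bases), and genes of like length had medians of 0.38 and -0.09. Supt4b, the close copy of Supt4a, was listed at no more than 0.406 CPM in any library. How the counting split reads between the copies cannot be told from the table.

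NELF, the 4-subunit complex that holds the paused polymerase with DSIF, had little spread among its genes. All 4 log2 fold changes were positive and lay between 0.24 and 0.29, each about 1 SE from 0. Nelfb, for the subunit first described as a BRCA1 cofactor, stood at 98.7 and 107 CPM in KO libraries, against 89.6 and 83.7 CPM in WT libraries. Nelfcd stood at 68.4 and 90.1 CPM in KO libraries, against 66.8 and 63.0 CPM in WT libraries. Nelfa stood at 62.5 and 66.6 CPM in KO libraries, against 61.9 and 45.3 CPM in WT libraries. For these 3 genes the groups did not overlap, but the KO 9 value was close to that of WT 1 for Nelfa and Nelfcd. Nelfe, whose product binds RNA, stood at 48 and 70.7 CPM in KO libraries, against 55.2 and 45.1 CPM in WT libraries, with overlap. The genes of Nelfa and Nsd2 overlap by 51 bases on the chromosome, and the counting is not stated to use strand, so reads there cannot be told apart. The same holds for Nelfcd and Ctsz (12 bases), Polr2i and Tbcb (124 bases), Polr2k and Spag1 (784 bases), Supt16 and Rpgrip1 (921 bases), Supt6 and Sdf2 (227 bases) and Ccnk and Setd3 (38 bases), and for Polr2b, Polr2c and Cdc73 with neighbours at no more than 2.19 CPM.

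P-TEFb, the kinase that releases the paused polymerase, consists of CDK9 and cyclin T1 or T2, and its genes had log2 fold changes of both signs. Cdk9 (chr2:32705782-32712784) stood at 119 and 155 CPM in KO libraries, against 105 and 82.0 CPM in WT libraries (log2 0.55, SE 0.24, edgeR adjusted p 0.417), without overlap. Ccnt1 (chr15:98538690-98567736) stood at 48.2 and 20.7 CPM in KO libraries, against 56.3 and 48 CPM in WT libraries (log2 -0.60, SE 0.38, edgeR adjusted p 0.495). Its low value was in KO 12 alone. Without KO replicate 12 the log2 fold change of Ccnt1 was -0.11, and without KO replicate 9 it was -1.35. Ccnt2 stood at 50.6 and 34.9 CPM in KO libraries, against 52.0 and 49.9 CPM in WT libraries (log2 -0.25, SE 0.24), again with KO 12 low. Hexim1, whose product holds P-TEFb inactive in the 7SK particle, stood at 38.1 and 54.1 CPM in KO libraries, against 52.5 and 43.2 CPM in WT libraries (log2 -0.06, SE 0.25).

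Per length, the ratio of Ccnt1 to Cdk9 in FPKM was 0.359 and 0.111 in KO libraries, against 0.466 and 0.511 in WT libraries. The ratio of Hexim1 to Cdk9 was 0.189 and 0.203 in KO libraries, against 0.296 and 0.310 in WT libraries. Neither ratio overlapped between the groups. For Ccnt1 to Cdk9 the lowest value, 0.111, was in KO 12, the library in which Ccnt1 was low. How often the ratio of any pair of genes fails to overlap was not worked out. These ratios do not depend on the scaling of a library. They set genes of different length against each other, and KO 12 and WT 6 differ in how counts fall with length. Genes of like length had close medians for Ccnt1 (2322 bases, 0.09) and Cdk9 (2022 bases, 0.13). For Hexim1 (3429 bases) that median was -0.07. The ratio of Ccnt1 to Ccnt2 was 1.48 and 0.874 in KO libraries, against 1.64 and 1.47 in WT libraries, with overlap.

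The super elongation complex brings P-TEFb to genes, with AFF1 or AFF4 as its scaffold and an ELL protein as an elongation factor. Its scaffold genes were lower in both KO libraries and its Ell genes were higher. Aff1 (chr5:103692362-103855322) stood at 83.5 and 53.1 CPM in KO libraries, against 101 and 145 CPM in WT libraries, a log2 fold change of -0.85 (SE 0.29, edgeR p 0.0208, adjusted p 0.412). Aff4 (chr11:53350640-53421830) stood at 85.1 and 50.5 CPM in KO libraries, against 109 and 115 CPM in WT libraries, a log2 fold change of -0.73 (SE 0.28, edgeR p 0.0315, adjusted p 0.413). The groups did not overlap for either, and KO 12 was the lowest library. They are the longest of the 40 transcripts, and the medians of genes of their length were -0.41 and -0.45. With the length trend removed they stood at -0.45 and -0.29.

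Ell2, the ELL gene known for its role in antibody-secreting cells, stood at 29.4 and 22.1 CPM in KO libraries, against 18.3 and 16.4 CPM in WT libraries, a 1.48-fold difference (log2 0.57, SE 0.24, edgeR p 0.0498, adjusted p 0.416). The groups did not overlap, and KO 9 was highest, unlike the short polymerase genes. Genes of its length had a median of -0.07, and with the length trend removed its log2 fold change was 0.69, the largest of the 40. The B cell markers summed to 159 and 303 CPM in KO libraries, against 210 and 139 CPM in WT libraries, and their part in the Ell2 values was not tested. Ell stood at 44.4 and 43.9 CPM in KO libraries, against 39.6 and 36.5 CPM in WT libraries (log2 0.21, SE 0.21). The ratio of Ell2 to Ell in FPKM was 0.558 and 0.426 in KO libraries, against 0.390 and 0.380 in WT libraries, without overlap.

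**Figure D5:**
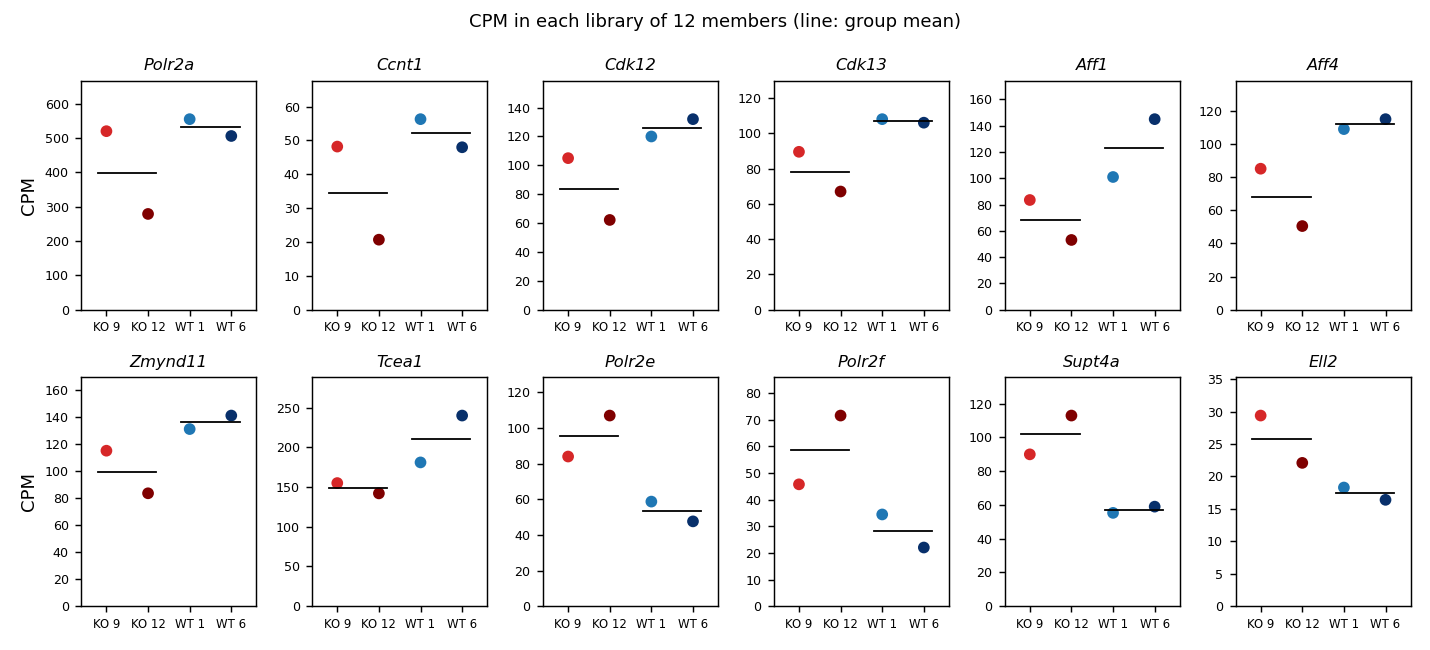
CPM in each library of 12 members, picked because their values stand apart (axes start at 0, lines are group means, KO left of WT). For Polr2a and Ccnt1 KO 12 alone is low. For the other 10 the groups do not overlap, which follows from the choice, as for Supt4a at 90.0 and 113 CPM in KO against 55.3 and 59.0 CPM in WT. Of all tested genes, 25.4% have both KO libraries above both WT libraries and 24.3% have them below.

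CDK12 and CDK13 are kinases that, with cyclin K, phosphorylate the repeat domain during elongation, and all 3 genes had negative log2 fold changes. Cdk12, known for keeping long DNA repair genes expressed, stood at 105 and 62.2 CPM in KO libraries, against 120 and 132 CPM in WT libraries (log2 -0.60, SE 0.28, edgeR adjusted p 0.423). Cdk13 stood at 89.5 and 67.0 CPM in KO libraries, against 108 and 106 CPM in WT libraries (log2 -0.45, SE 0.23, edgeR adjusted p 0.438). Both KO libraries were below both WT libraries for the kinase genes, with KO 12 the lowest. Genes of like length had medians of -0.36 and -0.30, and with the length trend removed the kinase genes stood at -0.24 and -0.14. Ccnk, a shorter transcript for their cyclin, stood at 143 and 107 CPM in KO libraries, against 137 and 138 CPM in WT libraries (log2 -0.14, SE 0.23).

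Among the factors that take the polymerase through chromatin, SPT6, IWS1 and FACT genes had log2 fold changes between -0.18 and 0.31. SPT6 is a histone chaperone that travels with the polymerase and, with IWS1, is known to help bring SETD2 to it. Supt6 stood at 165 and 166 CPM in KO libraries, against 183 and 169 CPM in WT libraries (log2 -0.09, SE 0.20), and its KO libraries lay just below its WT libraries. Iws1 stood at 87.0 and 69.7 CPM in KO libraries, against 93.9 and 84.1 CPM in WT libraries (log2 -0.18, SE 0.22). FACT, which moves histones H2A and H2B aside and replaces them, had the most abundant member. Ssrp1, for one of its subunits, averaged 181 FPKM over the 4 libraries and stood at 541 and 584 CPM in KO libraries, against 522 and 386 CPM in WT libraries (log2 0.31, SE 0.23). Supt16, for the other, stood at 230 and 258 CPM in KO libraries, against 257 and 186 CPM in WT libraries (log2 0.14, SE 0.24).

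The PAF1 complex, a platform on the moving polymerase for histone modifiers, had log2 fold changes between -0.004 and 0.38. Ctr9, for its scaffold, stood at 59.5 and 64.7 CPM in KO libraries, against 62.1 and 62.4 CPM in WT libraries (log2 -0.004, SE 0.20). Cdc73, for the subunit also known as the tumour suppressor parafibromin, stood at 47.8 and 40.7 CPM in KO libraries, against 47.1 and 41.7 CPM in WT libraries (log2 -0.004, SE 0.22). Paf1 stood at 81.2 and 118 CPM in KO libraries, against 85.8 and 67.0 CPM in WT libraries (log2 0.38, SE 0.26). For Leo1 the values were 41.1 and 47.4 CPM in KO libraries, against 39.0 and 29.6 CPM in WT libraries (log2 0.37, SE 0.23), the 1 member of the complex whose groups did not overlap. Rtf1, needed for ubiquitination of histone H2B in yeast, stood at 130 and 157 CPM in KO libraries, against 149 and 107 CPM in WT libraries (log2 0.17, SE 0.25).

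TFIIS lets a backtracked polymerase cut its RNA and go on. Its gene Tcea1 (chr1:4857694-4897909) stood at 155 and 142 CPM in KO libraries, against 181 and 240 CPM in WT libraries (log2 -0.50, SE 0.23, edgeR adjusted p 0.421), without overlap and with WT 6 the highest. Genes of its length had a median of -0.004, and with the length trend removed Tcea1 stood at -0.51 (edgeR p 0.0385, adjusted p 0.444). With each library left out in turn its log2 fold change ran from -0.68 to -0.29, the latter without WT replicate 6. Zmynd11 encodes a reader of the mark that SETD2 places, bound on the histone variant H3.3, and is known to tune elongation. It stood at 115 and 83.5 CPM in KO libraries, against 131 and 141 CPM in WT libraries (log2 -0.46, SE 0.23, edgeR adjusted p 0.441), without overlap. With the length trend removed it stood at -0.32.

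The effective length that the files imply for a gene moves when its transcripts are used in different shares, and it was compared per library as a further readout. For 31 of 40 members the KO mean was within 1% of the WT mean, against 64.2% of 8899 genes at 10 CPM or more. It differed most for Iws1, Cdk13, Polr2k and Cdc73, and the share of all genes that differed as much was not worked out. Iws1 had an effective length of 4082 and 3438 bases in KO libraries, against 4116 and 4312 bases in WT libraries, so that KO 12 alone was short. Cdk13 had 6262 and 6041 bases in KO libraries, against 6532 and 6815 bases in WT libraries, without overlap. Polr2k had 526 and 512 bases in KO libraries, against 556 and 564 bases in WT libraries, without overlap. Its WT 6 value rests on 47.6 counts, and the gene overlaps Spag1 by 784 bases. The share of all genes whose effective lengths do not overlap between the groups was not worked out. Cdc73 had 5318 and 6183 bases in KO libraries, against 5285 and 5559 bases in WT libraries. Cdk12 went the other way from its paralog, with 7861 and 8070 bases in KO libraries, against 7593 and 7712 bases in WT libraries. RSEM estimates these shares from short reads, and no error of theirs is in the table.

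The machinery around these 40 genes was read from 8 further lists. None of their genes passed edgeR's adjusted test or the DESeq2 adjusted test in either direction. At an unadjusted edgeR p under 0.05, 3 polymerase I and III genes, 2 general factor genes, 1 Mediator gene and 1 other elongation gene were higher (6.23% of all genes), 2 Mediator genes and 1 other elongation gene were lower (5.73% of all genes), and the remaining 4 lists had none. Over all genes 49.8% were positive, the share to set beside the counts of positive genes in each list here. Of 19 tested genes of subunits of RNA polymerases I and III, 15 were positive, with a median log2 fold change of 0.40. For 10 of them both KO libraries lay above both WT libraries (25.4% of all genes). Polr3d, for a polymerase III subunit, stood at 20.4 and 29.0 CPM in KO libraries, against 15.5 and 9.81 CPM in WT libraries (log2 0.97, SE 0.31, edgeR adjusted p 0.394). With the length trend removed the median of that list was 0.24. Polr3gl had the smallest p among those lower (log2 -0.26, SE 0.24).

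Of 31 general transcription factor genes 19 were positive (median 0.12, or 0.05 with the length trend removed), led by the TFIIH gene Gtf2h4 at 37.8 and 47.8 CPM in KO libraries, against 26.7 and 23.4 CPM in WT libraries (log2 0.77, SE 0.23), with Taf5 at -0.33. Of 32 Mediator genes 22 were positive (median 0.21, or 0.05 with the length trend removed). Its kinase gene Cdk19 stood at 57.8 and 36.9 CPM in KO libraries, against 66.8 and 101 CPM in WT libraries (log2 -0.83, SE 0.30), and Med29 at log2 0.70 (SE 0.30). Integrator genes had a median of 0.08 over 14 genes, or 0.13 with the trend removed (Ints14 at 0.27, Ints7 at -0.30), and cleavage and termination genes a median of -0.03 over 18 genes, or 0.08 with the trend removed (Cpsf3 at 0.34, Pcf11 at -0.49). Genes of enzymes and readers of the repeat domain had a median of -0.19 over 15 genes, or -0.06 with the trend removed, with the phosphatase family gene Ctdspl2 at -0.68 (SE 0.31).

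Of 14 other readers of methylated lysine 36 and of enzymes listed with them, 3 were positive and 11 negative, with a median of -0.14, and of 0.06 with the length trend removed. Morf4l1 stood at 0.22 and Nsd2 at -0.48 (SE 0.24), and both KO libraries lay below both WT libraries for 5 of them (24.3% of all genes), as they did for Zmynd11. Of 20 tested genes of other elongation and pausing factors 11 were positive, with a median of 0.10, or 0.07 with the trend removed. Aff3, a lymphoid relative of Aff1 and Aff4, stood at 101 and 77.5 CPM in KO libraries, against 107 and 236 CPM in WT libraries (log2 -0.94, SE 0.37), with its height in WT 6. Elob, for a subunit of the elongin complex, stood at 117 and 175 CPM in KO libraries, against 97.6 and 78.1 CPM in WT libraries (log2 0.73, SE 0.26). Larp7 (log2 0.13) and Mepce (-0.18), for proteins of the 7SK particle, differed by less than their SE, and Tcea2, the other TFIIS gene that was tested, stood at -0.04.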

How the data were processed

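RNA-seq libraries of 2 Setd2 knockout and 2 wild type samples were compared by the genotype the labels give. Bowtie2, RSEM, GRCm38.p6 and mm10 are named in the submitters' processing notes. Tool versions: not given in the sources used here. Expected counts in the deposited table are RSEM's per gene, with shared reads divided between genes. A further value per gene was taken as FPKM made by the authors, since its header gives no unit and count over value gives nearly 1 length per gene. The authors' group means were not used. Expected counts were rounded, filtered with filterByExpr (minimum count 10) and scaled by TMM (factors 0.949 to 1.056). Groups were compared with the two-sided quasi-likelihood test of edgeR 4.0.16 (robust, R 4.3.3), Benjamini-Hochberg adjusted over 12816 genes at 0.05, and SE was taken from the F statistic. Effective length is the median over libraries of count over FPKM and library size, for counts of at least 10 and FPKM of at least 0.1, and 12687 tested genes had one. The length trend was a lowess (span 0.3) of log CPM on log effective length per library, entered as offsets. Alternatives used DESeq2 1.42.0, limma 3.58.1, other scalings, no filter, and each library left out. The NRF1 and YY1 motif letters were shortened after matches had been seen. Coordinates and promoter windows came from RefSeq (GRCm38.p6), to which 18424 gene IDs matched. The test was checked on simulated data, drawn with a common dispersion and without a length trend. That check does not measure the power of the test in these libraries. The members, lists and alternatives were chosen with earlier results of these data known. Named genes were all members, Setd2 and, from each further list, the gene of smallest p in each direction, apart from results that are not reported here. Those named beyond this (Larp7, Mepce, Tcea2, Supt4b) were chosen after their values were seen.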

Additional observations from a re-analysis of the deposited data

How the results depend on the processing

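With DESeq2 size factors, library size alone, no filter, the DESeq2 test, limma-voom or the length trend removed, 0 members passed, as in the fit reported, and 7 of 240 member values changed sign. Over all genes, 1 passed in the fit reported, 81 without the filter (48 higher, 33 lower), 186 with the DESeq2 test (89 higher, 97 lower) and 2 with the length trend removed (1 of them lower). The difference in median log2 fold change between genes over 8 kb and genes under 1 kb was -0.85, and -0.03 with the trend removed, which that fit takes out by construction. The signs that changed were those of Ctr9 (0.01) and Cdc73 (0.01) without the filter, and of Supt5 (0.09), Supt6 (0.22), Ctr9 (0.19), Cdc73 (0.25) and Hexim1 (0.05) with the trend removed. With each library left out in turn, the genes that passed numbered 0 to 194 (0 to 113 higher, 0 to 81 lower, most without WT replicate 1), the members 0 to 1 (Polr2k, hence 0 to 1 in the polymerase) and the other elongation factors 0 to 1. The difference by length then ran from -1.37 without KO replicate 9 to -0.37 without KO replicate 12. Over these fits 9 members changed sign, with log2 ranges of -0.11 to 0.41 for Polr2b, -0.15 to 0.14 for Supt5, -0.08 to 0.40 for Supt16, -0.07 to 0.05 for Ctr9, -0.13 to 0.10 for Cdc73, -0.05 to 0.44 for Rtf1, -0.33 to 0.16 for Hexim1, -0.37 to 0.06 for Ccnk and -0.06 to 0.49 for Nelfe. A lone library is there assumed to vary like the other group, and the cause of these shifts was not tested. No paired analysis was possible because the knockout and wild type libraries share no replicate number. Depth limited Polr2k most, with 47.6 to 224 counts a library.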
